A study of Mus musculus with 2 samples.

Results

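Inward rectifier potassium channels were followed through single-nucleus RNA-Seq of the stria vascularis, the epithelium of the cochlear lateral wall that secretes the endolymph. The genes were chosen by symbol: Kcnj10, Kcnj13, Kcnj16, Kcnj2, Kcnj3, Kcnj6, Kcnj8 and Kcnj15, which are 8 of the 48816 features of the count matrices and 8 of the 15 Kcnj genes among them. Nuclei came from CBA/J mice of both sexes at P30 (postnatal day 30) with no genetic change and no treatment. The study states that MethFix nuclei were fixed in methanol after isolation, and that the dissected tissue of the RNAlater dataset was placed in RNAlater first. Each dataset is 1 library of pooled mice, so neither preservation method has a replicate and no test is given between them.

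Inward rectifiers are potassium channels that pass current into the cell more readily than out of it and hold the resting potential near the potassium equilibrium. A channel is a tetramer of Kcnj subunits. In the stria vascularis the subunit Kir4.1, encoded by Kcnj10, lies in the membrane of the intermediate cells, which are melanocytes, and is needed for the endocochlear potential. Other members form different channels: Kir5.1 (Kcnj16) joins Kir4.1 in heteromeric channels, Kir7.1 (Kcnj13) is known from epithelia that move potassium, Kir3 subunits (Kcnj3, Kcnj6) are gated by G proteins, Kir6.1 (Kcnj8) forms ATP-sensitive channels with a sulfonylurea receptor, Kir2.1 (Kcnj2) is a classical strong rectifier, and Kir4.2 (Kcnj15) is a close relative of Kir4.1.

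The Kcnj genes were left out of the genes used for clustering and of the markers used for naming, so the classes of nuclei were made without them. Kcnj10 and Kcnj13 lie on chromosome 1 at chr1:172341210-172374085 on the plus strand and chr1:87386363-87394729 on the minus strand (GENCODE M21 on GRCm38). Kcnj16 (chr11:110968033-111027968) is followed after 38.2 kb by Kcnj2 (chr11:111066164-111076821) on the same strand, with no protein-coding gene between them. Kcnj6 (chr16:94748636-94997701, minus strand) and Kcnj15 (chr16:95257558-95300260, plus strand) are also neighbours on 1 chromosome, 260 kb apart. Kcnj3 is at chr2:55435970-55598145 on the plus strand. Kcnj8 (chr6:142564837-142571614, minus strand) stands 16.2 kb from Abcc9, the gene of its sulfonylurea receptor partner, with no protein-coding gene between.

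The 250 bases before the start of Kcnj10 and Kcnj13, the members highest in intermediate nuclei, are shown from RefSeq (GRCm38.p6) because the promoters of both can be read against motifs known from melanocyte genes. Capitals mark CATGTG on either strand, the core of the M-box bound by the melanocyte factor Mitf, and the TATA box letters TATAAA.
Kcnj10, chr1:172340960-172341209, plus strand: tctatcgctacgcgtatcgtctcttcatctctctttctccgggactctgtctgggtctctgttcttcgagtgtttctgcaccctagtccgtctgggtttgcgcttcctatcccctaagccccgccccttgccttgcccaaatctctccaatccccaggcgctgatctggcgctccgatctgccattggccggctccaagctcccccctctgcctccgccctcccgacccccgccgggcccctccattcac
Kcnj13, chr1:87394730-87394979, minus strand: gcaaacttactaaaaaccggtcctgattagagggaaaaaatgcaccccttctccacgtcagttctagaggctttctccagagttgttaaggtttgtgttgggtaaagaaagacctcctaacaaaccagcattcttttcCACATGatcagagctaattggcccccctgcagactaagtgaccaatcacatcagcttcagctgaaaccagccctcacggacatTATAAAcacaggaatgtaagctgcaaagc
The Kcnj10 window held no CATGTG on either strand, nor the TATA letters, nor the E-box CACGTG that Mitf also binds, and 62% of its bases were G or C. The Kcnj13 window held CATGTG, read as CACATG, 112 bases before the start, and TATAAA 29 bases before it, with a G and C share of 45.2%. The 2 matches do not overlap. Over 32851 promoter windows of the same length, 12.3% held CATGTG, 6.02% held CACGTG and 12.4% held TATAAA. Among the melanin synthesis genes, the Tyr window held 1 CATGTG and the Dct window 2. The Kcnj1 window also held 1 CATGTG, and that gene had 0 UMIs in both matrices. TATAAA was also found for Kcnj9 and 1 start of Kcnj16, and CACGTG for Kcnj2. A match is a description of letters, not of a bound site.

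The MethFix matrix held 4748 barcodes and 21027671 UMIs (unique molecular identifiers, 1 for each captured RNA molecule), and the RNAlater matrix 3868 barcodes and 17681824 UMIs. After filtering and doublet removal, 3372 and 2311 nuclei were kept, with medians of 3498.5 and 4702 UMIs. The 2 matrices share 3323 barcodes, 70.0% of the MethFix and 85.9% of the RNAlater barcodes. The same nuclei were thus largely counted in both, and the datasets were treated as 1 sample. The preservation method of a shared barcode cannot be told from these counts. Shared barcodes held 5863 Kcnj10 UMIs in MethFix and 7425 in RNAlater. The smaller of the 2 counts of each barcode added up to 5460, the most that can have been counted in both. Values are therefore given side by side, with exact intervals at 95% that cover counting error only, and no p-value is given. Levels are in CPM, the UMIs of a gene per 1000000 UMIs of a class. Classes were called X-like from their markers and are written, for short, as intermediate, basal or marginal nuclei. These names are a rebuilding of the study's and can differ from it, and 209 MethFix and 121 RNAlater nuclei stayed unnamed. The intermediate nuclei carried the melanocyte genes Tyr at 4942 and 5220 CPM and Dct at 21367 and 19187 CPM. Both genes are among the markers that named this class, so these values had to be high and are a description.

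Among the named classes, Kcnj10 was highest in intermediate nuclei and was detected in most of them. Its level there was 977 CPM in MethFix (944 to 1011, 3309 UMIs in 854 nuclei) and 1078 CPM in RNAlater (1041 to 1117, 3070 UMIs in 522 nuclei). Against all other named nuclei of the same library this was a log2 ratio of 3.72 (3.59 to 3.85) and 3.83 (3.70 to 3.96). At least 1 Kcnj10 UMI was found in 87.6% of the MethFix intermediate nuclei (85.2 to 89.7) and in 96.9% of the RNAlater ones (95.1 to 98.2). The intermediate nuclei had medians of 4029.5 and 5445.5 UMIs. With each nucleus thinned to 1000 UMIs, the shares were 57.2% and 63.0%, and 37 MethFix nuclei were too shallow to enter. The nuclei varied widely: the median was 3 Kcnj10 UMIs per MethFix nucleus (quartiles 1 and 5.75, highest 25) and 5 per RNAlater nucleus (quartiles 3 and 8, highest 31), while 106 and 16 intermediate nuclei had none.

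Kcnj13 had the same leading class at a lower level. Its CPM in intermediate nuclei was 211 in MethFix (195 to 227, 713 UMIs) and 205 in RNAlater (189 to 222, 584 UMIs), log2 ratios of 4.27 (3.95 to 4.61) and 4.23 (3.89 to 4.58) to the rest. It was found in 42.4% (39.0 to 45.8) and 52.1% (47.7 to 56.5) of the intermediate nuclei, and in 17.9% and 17.2% after thinning to 1000 UMIs. The Kcnj13 and Kcnj10 transcripts differ in length. A UMI counts a captured molecule and not a length of RNA, and whether the 2 genes are captured alike was not tested. By CPM Kcnj13 stood below Kcnj10, which compares captured molecules and does not settle the RNA levels of the 2 genes. Values per kilobase describe the annotation and do not place the 2 genes at a like level. Per kilobase of annotated exon, the values in intermediate nuclei were 166 CPM for Kcnj13 and 181 CPM for Kcnj10 in MethFix, and 162 and 199 CPM in RNAlater. Per kilobase of the whole gene they were 25.2 and 29.7 CPM in MethFix, and 24.5 and 32.8 CPM in RNAlater.

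A gene was called for a class at a log2 ratio of at least 2 to all other named nuclei in both libraries, among genes with at least 50 UMIs in each. Of the 2311 RNAlater nuclei kept, 2276 have a barcode in both matrices, and so do all 522 of its intermediate nuclei. A call in both libraries is therefore not a replication. Of the 8 members, 3 reached 50 UMIs: Kcnj10, Kcnj13 and Kcnj16. Kcnj10 and Kcnj13 were the 2 called in intermediate nuclei, against 3.40% of the 11283 genes tested. By the ratio, 149 genes in MethFix and 138 in RNAlater stood at or above Kcnj10, and 101 and 105 at or above Kcnj13. The median log2 ratio over all genes tested was -0.16 and -0.13. In marginal nuclei, called lower at a log2 ratio of -2 or below, the members called were the same 2: Kcnj10 at -3.79 and -4.22 and Kcnj13 at -3.72 and -3.77, where 11.4% of all genes were called. The intermediate nuclei are part of the rest here.

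**Figure D1:**
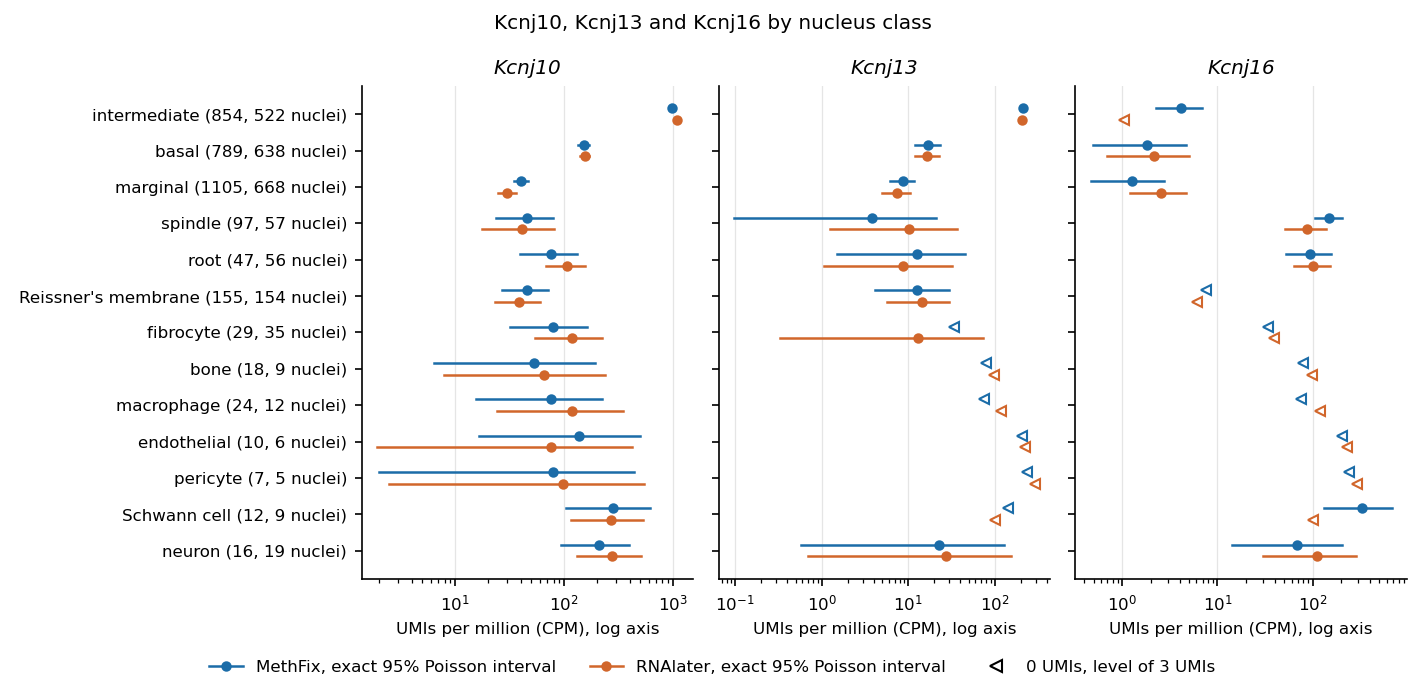
Level of Kcnj10, Kcnj13 and Kcnj16 in 13 classes of nuclei (rows, with the numbers of MethFix and RNAlater nuclei), in CPM on a log axis. Points are levels of the class, lines the exact 95% Poisson interval, and open triangles classes with 0 UMIs, drawn at the level of 3 UMIs. Kcnj10 and Kcnj13 are highest in the intermediate nuclei among classes over 50 nuclei, at 977 and 1078 CPM and at 211 and 205 CPM, and Kcnj16 lies between 87.0 and 149 CPM in spindle and root nuclei.

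Below the intermediate nuclei, the basal nuclei came next among the large classes, at 151 CPM of Kcnj10 in MethFix (135 to 168, 331 UMIs) and 154 in RNAlater (139 to 171, 361 UMIs). The level in intermediate nuclei was 6.46 times (5.77 to 7.26) and 6.99 times (6.26 to 7.82) that in basal nuclei. Marginal nuclei, which line the endolymph, had 40.4 CPM (34.8 to 46.5, 191 UMIs) and 29.9 CPM (24.8 to 35.9, 118 UMIs), and basal nuclei stood 3.75 times (3.13 to 4.50) and 5.15 times (4.17 to 6.40) above them. After thinning, 10.4% and 11.7% of basal and 4.08% and 2.55% of marginal nuclei had a Kcnj10 UMI, where the unthinned medians were 2486 and 3411.5 UMIs in basal and 4552 and 6090 UMIs in marginal nuclei. The melanocyte gene Dct, which marginal cells should lack, had a UMI in 30.1% and 23.1% of the thinned marginal nuclei, above the Kcnj10 share. The part of free RNA in the marginal Kcnj10 share was not tested.

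Root nuclei, from rare cells just outside the stria, and spindle nuclei, from rare cells at its borders, were few and so held few Kcnj10 UMIs. The paper reports Kcnj10 RNA in root cells, seen with Lgr5 RNA by in situ hybridization. The root nuclei had 75.5 CPM in MethFix (39.0 to 132, 12 UMIs in 11 of 47 nuclei) and 105.5 CPM in RNAlater (67.6 to 157, 24 UMIs in 19 of 56 nuclei). That was 1.87 times the marginal level in MethFix, with an interval from 0.95 to 3.35 that includes 1, and 3.52 times in RNAlater (2.17 to 5.50). The basal level was 2.00 times (1.13 to 3.91) the root level in MethFix. In RNAlater it was 1.46 times, with an interval from 0.97 to 2.31 that includes 1. Spindle nuclei had 45.8 and 40.9 CPM (12 and 8 UMIs), and Reissner's membrane nuclei 45.4 and 38.9 CPM (18 and 19 UMIs). The spindle level was 1.13 (0.58 to 2.03) and 1.37 (0.58 to 2.78) times the marginal one, so these 3 classes did not differ beyond counting error. The small neuron class was at 207 and 276 CPM and the Schwann cell class at 282 and 268 CPM, from 6 to 10 UMIs each, with lower bounds between 94.7 and 133 CPM that lie above the upper bounds of the marginal nuclei. The neuron class had medians of 2.63% and 3.33% mitochondrial UMIs and the Schwann cell class 0.74% and 0.79%, against 0.60% and 0.37% in marginal nuclei. The part of this share in the neuron and Schwann cell levels was not tested.

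Kcnj13 outside the intermediate nuclei was low in every class of 50 or more nuclei. It stood at 16.9 and 16.7 CPM in basal nuclei (37 and 39 UMIs), 8.66 and 7.36 in marginal nuclei (41 and 29 UMIs) and 12.6 and 14.3 in Reissner's membrane nuclei (5 and 7 UMIs). Root nuclei had 2 UMIs in each library and spindle nuclei 1 and 2. The intermediate level was 12.5 times (8.95 to 17.8) and 12.3 times (8.89 to 17.5) the basal one, larger folds than for Kcnj10 in the same nuclei. Kcnj13 UMIs per Kcnj10 UMI were 0.215 (0.198 to 0.234) and 0.190 (0.174 to 0.208) in intermediate nuclei and 0.112 (0.0773 to 0.157) and 0.108 (0.0756 to 0.151) in basal nuclei. In marginal nuclei they were 0.215 (0.149 to 0.302) and 0.246 (0.158 to 0.372), with intervals that overlap those of the intermediate nuclei.

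The levels of Kcnj10 in basal and marginal nuclei moved with the mitochondrial share of the nuclei. In basal nuclei with at most 0.5% mitochondrial UMIs, Kcnj10 stood at 60.5 CPM in MethFix and 58.8 CPM in RNAlater. Between 0.5 and 2% it was 67.7 and 91.4, between 2 and 5% it was 211 and 237, and between 5 and 10% it was 331 and 336 CPM. Marginal nuclei went from 23.9 and 26.8 CPM in the lowest range to 207 and 157 CPM in the highest. Their middle ranges had 24.5 and 84.1 CPM in MethFix and 27.1 and 40.9 CPM in RNAlater. The highest RNAlater range of marginal nuclei rests on 10 UMIs in 10 nuclei (75.4 to 289), and the intervals of its lower ranges overlap. The MethFix intermediate nuclei showed no order over the 4 ranges, at 956, 1007, 921 and 1055 CPM. In RNAlater they stood at 1026 CPM (981 to 1072), 1179 CPM (1108 to 1254) and 1249 CPM over the first 3 ranges, of which the first 2 intervals do not overlap, and at 988 CPM in the highest range, which held only 2 nuclei. Dct in basal nuclei moved in the same direction, from 531 and 444 CPM in the lowest range to 2161 and 1942 CPM in the highest. The barcodes removed for more than 10% mitochondrial UMIs held Kcnj10 at 1114 and 1339 CPM. The part of these barcodes' RNA in the basal and marginal values was not tested.

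**Figure D2:**
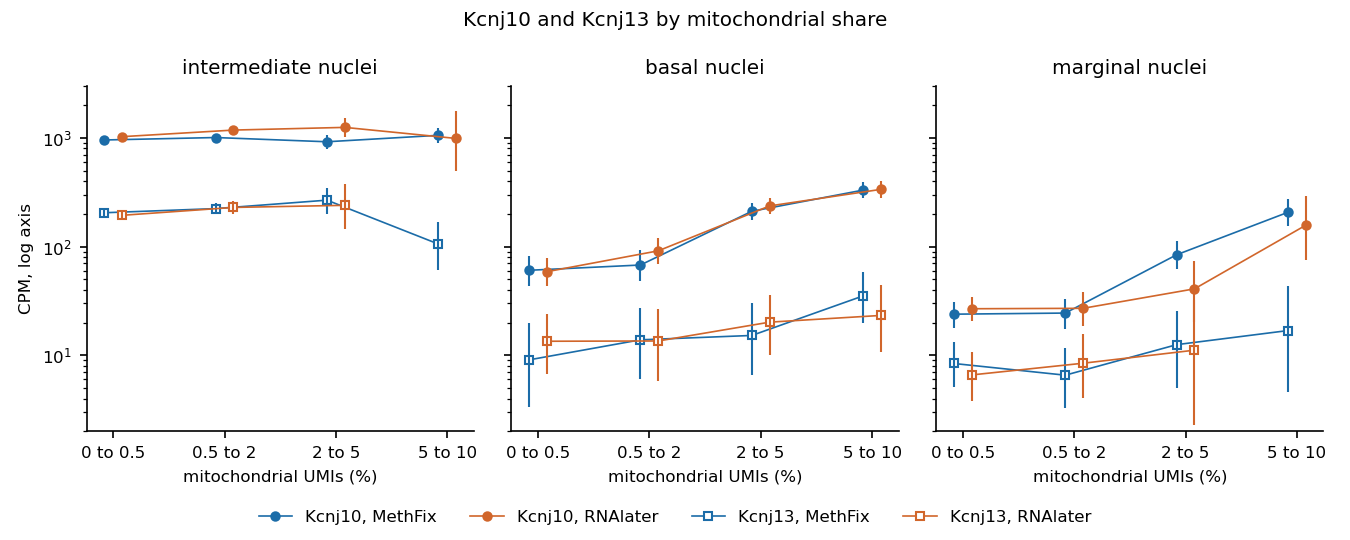
Level of Kcnj10 (filled circles) and Kcnj13 (open squares) in CPM on a log axis against the percent of mitochondrial UMIs of a nucleus in 4 ranges, for intermediate, basal and marginal nuclei of MethFix (blue) and RNAlater (orange). Vertical lines are exact 95% Poisson intervals and groups with 0 UMIs are left out. In basal nuclei Kcnj10 goes from 60.5 and 58.8 CPM to 331 and 336 CPM, while in intermediate nuclei it stays between 921 and 1249 CPM.

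The basal clusters differed in the same way. In MethFix, the basal cluster led by Gm12153, Scd1 and Cacna1e (340 nuclei, a median of 3.83% mitochondrial UMIs) had 238 CPM of Kcnj10. The other basal clusters, led by Sorcs3 and Col27a1, by Gm12153 and Fat2 and by Cdh6 and Tenm2, had 72.4, 50.4 and 58.0 CPM at medians under 1%. In RNAlater the cluster led by Scd1 and Kif1c (58 nuclei, a median of 7.09%) had 398 CPM, while 3 basal clusters with medians under 1% lay between 53.2 and 74.1 CPM. When only nuclei with at most 2% mitochondrial UMIs were counted, basal Kcnj10 was 63.9 and 72.5 CPM.

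Relative to melanocyte markers, Kcnj10 was not in 1 ratio over the classes. The markers used, Tyr, Dct and Mlana, are also among those that named the intermediate nuclei. That class was therefore chosen for high values of the denominator. Per 1000 UMIs of Tyr, Dct and Mlana together, the intermediate nuclei held 37.1 (35.8 to 38.4) and 44.1 (42.5 to 45.7) Kcnj10 UMIs. Basal nuclei held 124 (111 to 140) and 143 (128 to 160), and marginal nuclei 97.4 (83.6 to 113) and 103 (84.5 to 125). Root nuclei held 84.5 (42.7 to 152) in MethFix, against 250 (153 to 394) for RNAlater. In MethFix, 56 of the 125 Dct UMIs of root nuclei lay in 1 nucleus, while no RNAlater root nucleus held more than 6 of 89. The intervals do not cover this, so the 2 root values are not read as a difference between libraries. In the barcodes above the mitochondrial limit the value was 138 in MethFix and 175 in RNAlater. Kcnj13 per 1000 marker UMIs was 7.98 and 8.38 in intermediate, 13.9 and 15.5 in basal, and 20.9 and 25.3 in marginal nuclei. Whether RNA from other barcodes sets the levels outside the intermediate nuclei was not tested.

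**Figure D3:**
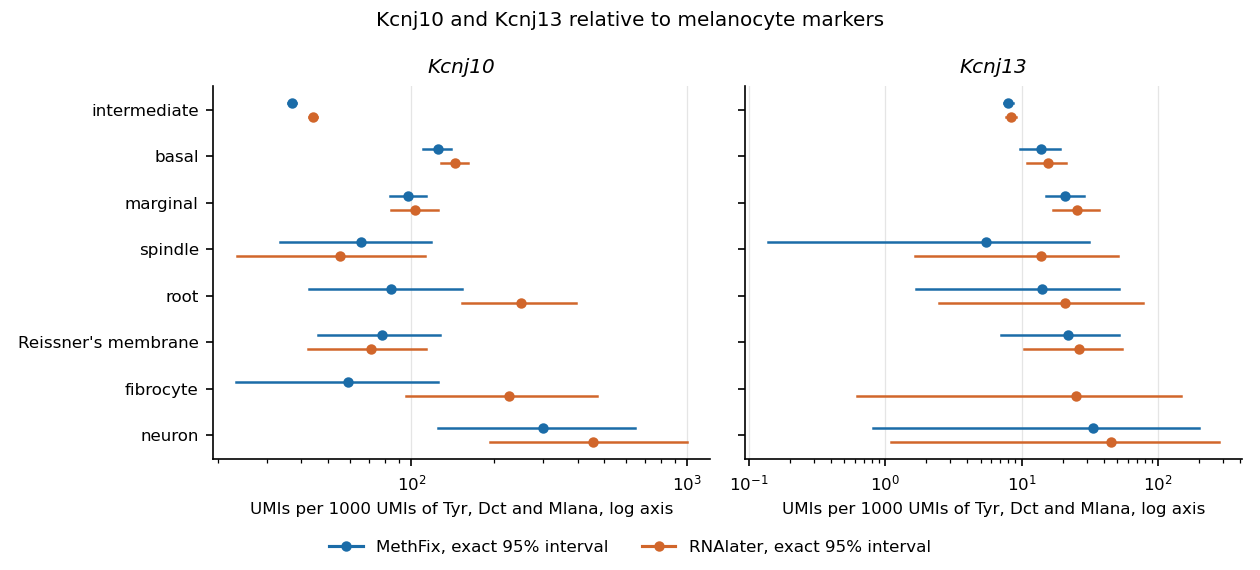
UMIs of Kcnj10 (left) and Kcnj13 (right) per 1000 UMIs of the melanocyte markers Tyr, Dct and Mlana in 8 classes of nuclei, on log axes that differ between the panels. Points are the ratio in MethFix (blue) and RNAlater (orange), lines the exact 95% interval, and points with 0 UMIs are left out. Intermediate nuclei hold 37.1 and 44.1 Kcnj10 UMIs per 1000 marker UMIs and basal nuclei 124 and 143.

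Within the intermediate nuclei, Kcnj13 differed between clusters of RNAlater where Kcnj10 hardly did. The cluster led by Gpr158, Chsy3, Pax3 and Bnc2 (220 nuclei) had 286 CPM of Kcnj13 (256 to 318, 332 UMIs). The cluster led by Opcml, Col5a3 and Spon1 (186 nuclei) had 117 CPM (97.2 to 140, 123 UMIs), and the remaining cluster, led by Bfsp2 (116 nuclei), had 204 CPM (170 to 242). Kcnj10 in the same clusters was 1013, 1078 and 1199 CPM. MethFix had 2 intermediate clusters, which differ by depth and mitochondrial share. The one led by Tyr, Opcml and Bnc2 (630 nuclei, a median of 4482.5 UMIs) had 218 CPM of Kcnj13 and 1008 CPM of Kcnj10, and the one led by Gm9925 and Ifnk (224 nuclei, 2251 UMIs) had 175 and 825 CPM. Clusters were made from the same nuclei, so these values are a description.

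To look at nuclei that played no part in the RNAlater clusters, the 5 leading genes of the clusters led by Gpr158 and by Opcml were used to divide intermediate nuclei at the median share of the first list. The first list was Gpr158, Chsy3, RP24-229D22.1, Pax3 and Bnc2, and the second Opcml, Col5a3, Gm2115, Spon1 and Taf1d; they were chosen after values had been seen. The cluster led by Bfsp2 gave no list and shares Opcml, Col5a3, Spon1 and Taf1d with the second. Among the 298 intermediate nuclei whose barcode is in the MethFix matrix only, the 149 with the higher share had 278 CPM of Kcnj13 (226 to 338, 101 UMIs) and the other 149 had 61.6 CPM (39.9 to 90.9, 25 UMIs), a fold of 4.51 (2.89 to 7.30). Kcnj10 was 804 and 791 CPM in the same groups, a fold of 1.02 (0.86 to 1.19). Over all intermediate nuclei, Kcnj13 was 288 against 137 CPM in MethFix, a fold of 2.11 (1.80 to 2.48), and 258 against 154 CPM in RNAlater, a fold of 1.68 (1.42 to 1.99). For Kcnj10 the folds were 0.93 (0.86 to 0.99) and 0.91 (0.85 to 0.98).

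**Figure D4:**
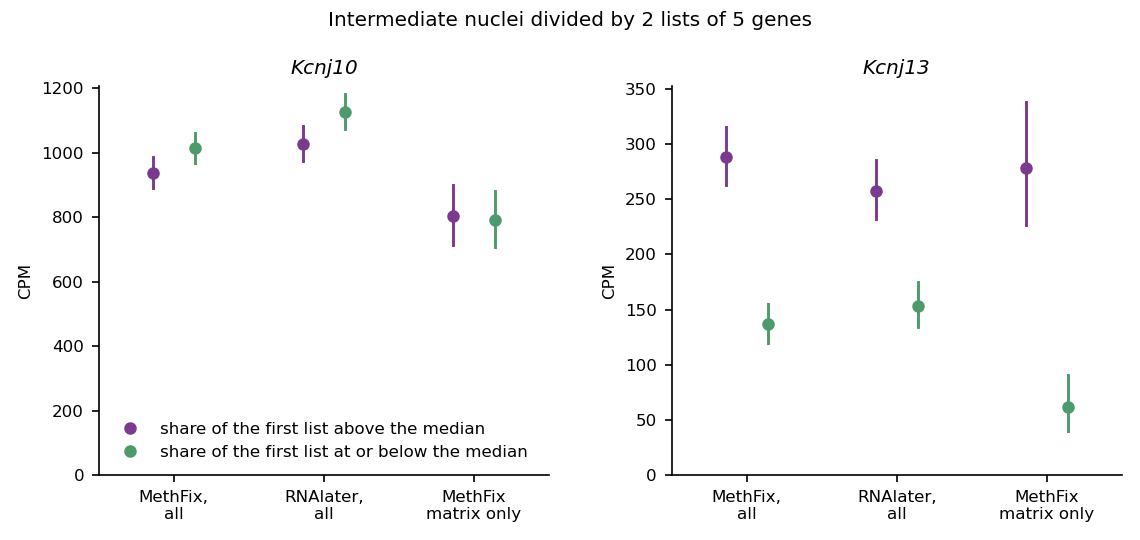
Level of Kcnj10 (left) and Kcnj13 (right) in CPM in intermediate nuclei divided at the median share of 5 genes led by Gpr158 against 5 genes led by Opcml, with exact 95% Poisson intervals. Purple points are nuclei above the median and green points those at or below it, for all MethFix nuclei, all RNAlater nuclei and the 298 MethFix nuclei whose barcode is in that matrix only. Kcnj13 is higher above the median in each set (278 against 61.6 CPM in the last), while Kcnj10 has folds of 0.91 to 1.02.

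Intermediate nuclei with and without a Kcnj10 UMI were compared for Kcnj13. After thinning to 1000 UMIs, Kcnj13 was found in 19.5% of the MethFix intermediate nuclei with a Kcnj10 UMI (15.99 to 23.4, n = 467) and in 15.7% of those without (12.1 to 20.0, n = 350). In RNAlater the shares were 18.5% (14.5 to 23.2, n = 329) and 15.03% (10.3 to 20.9, n = 193). The intervals overlapped in both libraries, so no difference was detectable at this depth.

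Kcnj16, the partner subunit of Kcnj10, was found mainly outside the intermediate nuclei. In spindle nuclei it stood at 149 CPM in MethFix (106 to 203, 39 UMIs in 21 of 97 nuclei) and 87.0 CPM in RNAlater (50.7 to 139, 17 UMIs in 11 of 57 nuclei). In root nuclei it stood at 94.4 CPM (52.8 to 156, 15 UMIs in 7 of 47 nuclei) and 101 CPM (64.1 to 152, 23 UMIs in 11 of 56 nuclei). The highest count in 1 nucleus was 9 and 3 UMIs in spindle and 5 and 7 in root nuclei, a spread that the intervals do not cover. The log2 ratios to the rest were 5.08 (4.43 to 5.71) and 4.38 (3.48 to 5.23) in spindle nuclei, and 3.86 (2.95 to 4.67) and 4.82 (4.00 to 5.61) in root nuclei. Kcnj16 was the 1 member called in spindle and the 1 called in root nuclei, against 2.37% and 2.24% of the 11283 genes. It had 88 UMIs in named nuclei of MethFix and 59 of RNAlater and passed the minimum of 50 UMIs only through these 2 classes in both, so its ratio had to be high and the calls are a description. With the rest taken as the equally weighted mean of the other classes, the log2 ratios were 1.71 and 1.69 in spindle and 0.91 and 2.00 in root nuclei, and neither call held in both libraries.

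The order of spindle and root nuclei was not settled, as the point values lay in opposite order in the 2 libraries and the intervals overlapped. By the ratio, 17 genes in MethFix and 32 in RNAlater stood at or above Kcnj16 in spindle nuclei. In root nuclei these numbers were 53 and 28. Kcnj16 entered the genes tested only through spindle and root nuclei, so these ranks had to be high and are a description. Basal nuclei had 4 and 5 Kcnj16 UMIs and marginal nuclei 6 and 10, under 3 CPM in each. Reissner's membrane nuclei had 0, where 3 UMIs would be 7.57 CPM in MethFix and 6.14 CPM in RNAlater. In intermediate nuclei, RNAlater had 0 UMIs in 522 nuclei, where 3 UMIs would be 1.05 CPM. MethFix had 14 UMIs in 3 intermediate nuclei, 1 of which held 8. Neurons had 3 and 4 UMIs, with log2 ratios of 3.20 and 4.36, and Kcnj16 was the 1 member called there, where 21.8% of all genes were called. Whether all nuclei of the small neuron class are neurons was not tested. Against marginal nuclei, Kcnj16 was 54.4 times (8.81 to 255) as high in the MethFix neuron class and 43.6 times (9.97 to 151) in the RNAlater one. These folds were 117 (49.3 to 339) and 34.3 (14.8 to 83.8) in spindle nuclei. In root nuclei they were 74.5 (27.3 to 234) and 39.9 (18.2 to 93.8), with intervals that overlap those of neurons. The MethFix Schwann cell class had 7 UMIs, 6 of them in 1 nucleus, and stood at 260 times (74.7 to 935) the marginal level. The RNAlater one had 0, where 3 UMIs would be 101 CPM.

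Kcnj10 and Kcnj16 were found together in a few root and spindle nuclei. In root nuclei, 3 nuclei held both in each library, out of 11 MethFix and 19 RNAlater nuclei with Kcnj10 and 7 and 11 with Kcnj16. In spindle nuclei, 3 nuclei also held both in each library, out of 10 and 8 with Kcnj10 and 21 and 11 with Kcnj16. At these counts no rate of co-expression can be given.

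The other 5 members had fewer than 50 UMIs in the nuclei kept of each library. Kcnj2 had 25 UMIs in MethFix and 22 in RNAlater, no more than 2 in any nucleus. Of these, 13 and 9 lay in intermediate nuclei and 7 and 10 in basal nuclei. Marginal nuclei had 0 in both libraries, although they are the largest class, where 3 UMIs would be 0.634 and 0.761 CPM. The intermediate nuclei were at 3.84 and 3.16 CPM.

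Kcnj3, which encodes a subunit of G-protein-gated channels of neurons and heart, had 45 and 23 UMIs. Neurons held 19 and 12 of them in 8 of 16 and 5 of 19 nuclei, at 437 and 332 CPM, and the log2 ratios to the rest were 8.19 and 8.41. Kcnj6, its partner in neurons, had 18 and 16 UMIs. They were spread over basal (7 and 5), marginal (5 and 6) and neuron nuclei (2 and 2). Both neuron nuclei with Kcnj6 in each library also held Kcnj3.

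Kcnj8 had 4 and 3 UMIs, of which 3 and 2 lay in the pericyte class of 7 and 5 nuclei. All 3 MethFix pericyte nuclei with Kcnj8, and the 1 such nucleus in RNAlater, also held UMIs of its partner Abcc9. Abcc9 had 22 UMIs in 6 pericyte nuclei in MethFix and 17 in 5 in RNAlater, and neither gene had a UMI in the endothelial class. Kcnj15 had 6 and 4 UMIs. Root nuclei held 3 in each library, in 2 nuclei, and intermediate nuclei 3 in MethFix and 0 in RNAlater.

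**Figure D5:**
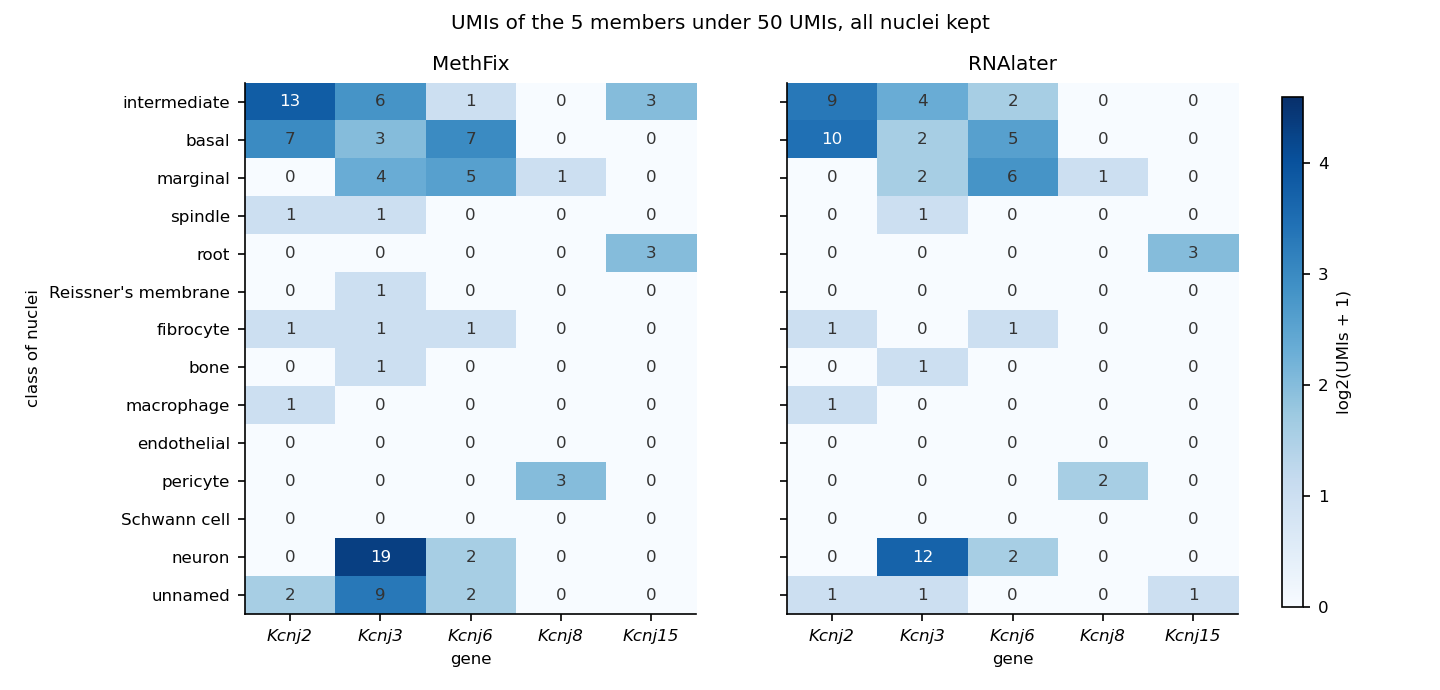
UMIs of Kcnj2, Kcnj3, Kcnj6, Kcnj8 and Kcnj15 (columns) in each class of nuclei (rows) of MethFix (left) and RNAlater (right), with the count in each cell and colour by log2(UMIs + 1). Kcnj3 is highest in neurons (19 and 12 UMIs), Kcnj2 lies in intermediate and basal nuclei, and Kcnj8 has 3 and 2 UMIs in pericytes.

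Of the other 7 Kcnj genes, Kcnj9 had the most UMIs, 22 in MethFix and 14 in RNAlater, with 15 and 11 of them in intermediate nuclei. Kcnj9, which encodes another G-protein-gated subunit, lies 11.9 kb from Kcnj10 on the opposite strand. Kcnj12 had 5 and 7 UMIs, Kcnj14 had 1 in each library and Kcnj11 had 0 and 1. Kcnj1, Kcnj4 and Kcnj5 had none in the nuclei kept.

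Of 12 genes listed as partners and regulators of the channels, 8 had enough UMIs to be tested. Gnao1, a G protein alpha subunit, was the 1 partner called in intermediate nuclei, at 186 and 197 CPM with log2 ratios of 2.44 and 2.35. Of all genes tested, 3.40% were called there. Marginal nuclei had 4.2 and 5.6 CPM of Gnao1 and, with Rgs6, it made the 2 partners called lower there, against 11.4% of all genes. Rgs6, which limits G-protein signalling, stood at 852 and 910 CPM in basal nuclei against 9.5 and 7.0 CPM in intermediate nuclei. In neurons 3 partners were called higher (Dmd, Rgs7 and Gnao1), where 21.8% of all genes were called. Rgs7 passed the minimum of 50 UMIs only through the neurons, so its ratio had to be high and its call is a description. No partner was called in spindle or root nuclei, against 2.37% and 2.24% of all genes. In root nuclei the log2 ratios were 2.12 and 1.95 for Dmd and 1.94 and 3.23 for Rgs6, each past 2 in 1 library only. The scaffold genes Dlg1 and Magi1 and the G protein gene Gnb1 had log2 ratios between 0.14 and 0.38 in intermediate nuclei.

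Neighbouring genes can share reads where strands are not told apart. The study's methods give default settings for the counting and do not name strand use. The whole of Kcnj13 lies within Gigyf2 on the opposite strand. Gigyf2 was at 235 and 260 CPM in intermediate and 280 and 299 CPM in marginal nuclei, with log2 ratios of -0.17 and -0.07 for intermediate nuclei. Sharing of reads between Gigyf2 and Kcnj13 was not tested. Pigm, a gene of glycosylphosphatidylinositol anchor synthesis that begins 2.46 kb after the end of Kcnj10 on the same strand (chr1:172376546-172384099), had 121 and 128 CPM in intermediate nuclei. It was between 8.2 and 10.3 CPM in basal and marginal nuclei, and its log2 ratios of 3.69 and 3.74 stand beside 3.72 and 3.83 for Kcnj10. Reads past the end of Kcnj10 and transcripts of Pigm itself cannot be told apart in these counts.

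The genes most like each member were ranked by the lower of the Pearson correlations of log2(CPM + 10) in the 2 libraries over 9 classes, among 11223 genes. For Kcnj10 they were Cttnbp2 (0.93 in both), Polg (0.92 and 0.93) and Slc45a2 (0.91 and 0.92), the last of which encodes a melanosome transporter. For Kcnj13 they were Dkk3 (0.93 and 0.96), Gm13030 (0.91 in both) and Trpm1 (0.91 in both), a channel of melanocytes. For Kcnj16 they were Vldlr (0.96 in both), Homer2 (0.89 and 0.92) and Wscd2 (0.92 and 0.87). Kcnj10 and Kcnj13 correlated with each other at 0.88 and 0.80. The classes share their library and differ in depth, so these values describe likeness over 9 points.

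MethFix nuclei whose barcode is in both matrices and those found in MethFix only gave different levels for some members. Intermediate Kcnj10 was 1030 CPM in the 556 shared and 797 CPM in the 298 other nuclei, and Kcnj13 was 224 and 164 CPM. Basal Kcnj10 was 161 and 54.0 CPM. Spindle Kcnj16 was 152 and 141 CPM, and 13 of the 14 Kcnj16 UMIs of the MethFix intermediate class came from 2 nuclei found in MethFix only.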

How the data were processed

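Per the labels and the study's methods, nuclei were captured on the 10x Genomics platform, and the submitters' processing notes name Cell Ranger 3.0.1, GRCm38 and Scanpy 1.4.5. What the authors deposited is a matrix per library with the UMI count of every gene in every barcode, not normalized. Whether intronic reads were counted is not given in the sources used here. A gene had to occur in 3 or more nuclei. Nuclei under 200 genes, over 8000 UMIs or over 10% mitochondrial UMIs were dropped. Scrublet in scanpy 1.11.5 removed doublets at an expected rate of 0.1: 224 barcodes in MethFix and 18 in RNAlater. Each library was clustered with leidenalg 0.10.2 on 4000 variable genes without the Kcnj genes, 30 principal components and 10 neighbours. The resolution was 1 (MethFix) or 1.5 (RNAlater). Clusters were named from marker lists of 18 classes with at least 3 detected markers. A cluster with a second class score of at least 3 was divided again, a rule set after looking at the clusters.

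Within a library, the UMIs of each class were added up, and classes were compared by CPM and by the log2 ratio to all other named nuclei. A side with 0 UMIs was set to 3 counts, and no ratio was given where both sides were at or below that. Thinning drew 1000 UMIs per nucleus with a fixed seed. Intervals are exact 95% Poisson, binomial or conditional binomial intervals and cover counting error only. With 1 library per method and shared barcodes there is no replicate, so no test was made. All 8 members were described, with partners named at 50 or more UMIs and the 3 most correlated genes of a member. The members and lists were chosen with earlier results of these data known. The analysis used Python 3.11.15 with pandas 2.3.3, scipy 1.17.1, numpy 2.4.6 and matplotlib 3.10.9, and R 4.3.3, with edgeR 4.0.16 and DESeq2 1.42.0 for alternative scalings only. The scripts were tested on simulated data. The values of 1 basal cluster of RNAlater and of 1 partner gene are not reported here. In all, 19 alternatives were planned and 2 were added after seeing the data.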

Additional observations from a re-analysis of the deposited data

Results flagged for a closer look

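Barcodes that were removed by the filters held signal of the members. Those above 10% mitochondrial UMIs (746 in MethFix and 1157 in RNAlater) had Kcnj10 at 1114 CPM (1068 to 1163) and 1339 CPM (1295 to 1384), against 338 and 352 CPM over all nuclei kept. Kcnj13 was at 95.8 and 95.5 CPM there, against 69.0 and 63.8 CPM in the nuclei kept. Kcnj13 UMIs per 100 Kcnj10 UMIs were 8.60 and 7.12 in the barcodes over that limit. Which cells these barcodes come from was not tested.

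Barcodes above 8000 UMIs held 94 of 140 Kcnj3 UMIs in MethFix and 71 of 95 in RNAlater, and 26 of 44 and 14 of 33 Kcnj6 UMIs. Of the UMIs of all genes, they held 6099684 of 21027671 in MethFix and 4415102 of 17681824 in RNAlater. Those with at least 5 UMIs of the neuronal gene Snap25 were 18 in MethFix and 15 in RNAlater, of which 14 and 15 occur in both matrices. They held 76 and 69 UMIs of Kcnj3, at 245 and 253 CPM, while the 383 and 358 other barcodes above the limit held 18 and 2. Kcnj6 had 17 and 11 UMIs in them, and Kcnj12 had 9 and 7. Kcnj4, with 0 UMIs in every nucleus kept, had 8 and 12 UMIs there, in 4 barcodes in each library, and 0 in the other barcodes above the limit. Doublets and single large nuclei cannot be told apart among them.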

How the results depend on the processing

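None of the class-to-rest log2 ratios with alternative values changed sign. Levels, shares and counts have no direction that could turn. Of 148 alternative values of the main results, 119 moved by less than their interval or by less than 1.5 times for counts, and of 177 other values 125 did. The log2 ratio of intermediate nuclei ranged from 3.17 to 3.91 for Kcnj10 and from 4.02 to 4.90 for Kcnj13 over 17 alternative values each, all past 2.

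With the rest taken as the equally weighted mean of the other classes, the log2 ratios were 3.17 and 3.29 for Kcnj10 (MethFix and RNAlater), 4.90 for Kcnj13 in MethFix, 1.71 and 1.69 for Kcnj16 in spindle nuclei, and 0.91 and 2.00 for Kcnj16 in root nuclei. Kcnj16 thus fell below 2 in spindle nuclei of both libraries and in root nuclei of MethFix. The spindle, root and small neuron classes then enter each other's rest with full weight, as does the Schwann cell class in MethFix. The RNAlater Schwann cell class, with 9 nuclei, was under the minimum of 10 and did not enter. A mitochondrial limit of 20% gave Kcnj10 log2 ratios of 3.25 and 3.28. With doublets kept, MethFix Kcnj10 in intermediate nuclei was 907 CPM. With classes called for each barcode from its own marker UMIs, spindle Kcnj16 in MethFix was 99.2 CPM, a log2 ratio of 4.22. With the shared barcodes left out, the MethFix values were 797 CPM for Kcnj10 and 164 CPM for Kcnj13 in intermediate nuclei and a log2 ratio of 3.84 for Kcnj16 in spindle nuclei, and root nuclei were too few for a value. With the shared barcodes only, MethFix Kcnj10 was 1030 CPM. Thinned to 2000 UMIs, Kcnj10 was found in 82.6% and 83.0% and Kcnj13 in 29.3% and 31.5% of intermediate nuclei, and Kcnj16 in 20% of RNAlater root nuclei. At a log2 ratio of 1, the genes called were 864 in intermediate, 911 in spindle, 1022 in root, 4519 in neuron and 1954 (lower) in marginal nuclei. With a minimum of 10 UMIs they were 1795 in spindle, 2154 in root and 6008 in neuron nuclei. The cause of these moves was not tested where none is stated.

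The 5 members below 50 UMIs rest on few nuclei, between 2 and 32 in a library. No paired analysis was possible because the groups hold 1 library each and share fewer than 2 replicate numbers, which also leaves no replicate to leave out.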

Other observations

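Some small clusters without a name had Kcnj10 levels in the range of the intermediate nuclei. In MethFix, a cluster of 18 nuclei led by Wfdc18, Map1a and Nefh had 1212 CPM of Kcnj10 (769 to 1819, 23 UMIs). In RNAlater, a cluster of 14 nuclei led by Bglap2 and Bglap had 1311 CPM (897 to 1851, 32 UMIs), and one of 9 nuclei led by Wfdc18 and Epyc had 1262 CPM (721 to 2049, 16 UMIs). These clusters had medians of 965, 1376 and 1407 UMIs per nucleus and of 6.78%, 6.20% and 4.89% mitochondrial UMIs. The MethFix cluster led by the motile cilia genes Dnah12, Spag16 and Dnah5 (84 nuclei) had 308 CPM of Kcnj10 (256 to 369) at a median of 4.12% mitochondrial UMIs. The part of the mitochondrial share in these values was not tested.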
